A study of Mus with 21 samples.

Results

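Microglia are the resident macrophages of the brain, and the 9 genes described here, *Csf1r*, *Cx3cr1*, *P2ry12*, *Tmem119*, *Aif1*, *Trem2*, *Sall1*, *C1qa* and *C1qb*, are in wide use as their markers. They were picked by gene name with earlier results of these data known, by a rule that itself uses no measured value, and they are 9 of the 55335 genes in the deposited count table. All 9 belong to the 30552 genes tested. Poly(A) RNA was sequenced from the whole brain of 21 female mouse embryos at E17.5, 1 library for each embryo, with no sorting of cells. The embryos fall into 4 genotype groups, given by the labels as *Wapl* +/+ with *Nipbl* +/+ (WT, n = 5), *Wapl* +/+ with *Nipbl* +/delta (*Nipbl*+/-, n = 3), *Wapl* delta/+ with *Nipbl* +/+ (*Wapl*Δ/+, n = 7), and both deletions together (double heterozygotes, n = 6). The study asked whether a smaller dose of *Wapl*, which releases cohesin from DNA, changes what the loss of 1 copy of *Nipbl*, the cohesin loader, does to the embryonic brain transcriptome. Both deletions are carried by every cell, since the *Nipbl* deletion was made in the germ line of sires with a floxed allele and the Stra8-icre transgene, and the *Wapl* deletion, which removes the promoter and the first exons, came from a cross with E2a-Cre mice. The mice were on a C57BL/6J background. The labels write the *Wapl* deletion before the normal allele in *Wapl*Δ/+ replicates 1 and 2 and double-heterozygote replicates 1 to 4, and after it in the other libraries with that deletion.

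Microglia descend from yolk sac progenitors that enter the brain early in development, and they renew themselves there. Their survival depends on the receptor CSF1R and its ligands CSF1 and IL34, and their identity on transcription factors such as SALL1 and on TGF-β signalling. They follow neuronal CX3CL1 through CX3CR1, sense nucleotides through P2RY12, take up debris and lipids with the help of TREM2, and make the C1q complement protein that tags material for removal. Most of the 9 genes are not unique to microglia: *Csf1r*, *Cx3cr1*, *Aif1*, *Trem2* and the C1q genes are also used by other macrophages, and *Sall1* is also expressed by neural progenitors.

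In *Nipbl*+/- brains, 4 of the 9 genes were lower than in WT, *Cx3cr1*, *P2ry12*, *C1qb* and *Csf1r*, and *Sall1* was higher, where 11.2% of all genes tested were called in either direction. A gene was called when its P value, adjusted over all genes tested, was below 0.10. *Cx3cr1* stood at 66.7% of the WT mean and *P2ry12* at 61.9%, while *Csf1r* and *C1qb* differed by smaller amounts. No member was called in *Wapl*Δ/+ brains (2.22% of all genes). In double heterozygotes only *Cx3cr1* was called, at 75.2% of WT, among 3.28% of all genes. No member was called between double heterozygotes and *Nipbl*+/- brains (0.00655% of all genes).

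The 21 libraries held between 25682566 and 35818767 counts on genes. *Nipbl* RNA averaged 1176 normalized counts in *Nipbl*+/- brains and 1187 in double heterozygotes against 2166 in WT and 2120 in *Wapl*Δ/+ brains, and *Wapl* RNA averaged 697 in *Wapl*Δ/+ brains and 736 in double heterozygotes against 1492 in WT and 1392 in *Nipbl*+/- brains, so the labels held in each group. A normalized count is a count divided by the library's effective size after TMM scaling and multiplied by the mean effective size of all libraries. The mitochondrial gene *mt-Nd3* had under 20 counts in WT replicates 1 to 3, in all 3 *Nipbl*+/- libraries, in *Wapl*Δ/+ replicates 1 and 2 and in double-heterozygote replicates 1 to 4, and 52 or more in the other libraries. Among libraries with a *Wapl* deletion this split matches the allele order given above. All *Nipbl*+/- libraries lie on one side of it. For the members called in *Nipbl*+/- brains, the comparison with WT is therefore also given within the low *mt-Nd3* libraries. So are the counts of calls among the further microglia genes and the shared myeloid genes. For most other genes and lists it is not given here. The 14 neuronal markers examined were all detected, and their summed level lay between 195357 and 216534 normalized counts per library.

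The 9 genes were detected in every library. Their mean raw count in WT brains ran from 42.2 for *Aif1* to 1198 for *Csf1r*, which leaves a counting error of 15.4% for the former and 2.89% for the latter. The spread between the 5 WT replicates, as a coefficient of variation, was 4.97% for *Sall1*, 18.5% for *P2ry12* and between these for the other 7. Transcript lengths were not used here, so levels are compared between groups for 1 gene and not between genes. On GRCm38.p6, *P2ry12* lies on chromosome 3 from 59216271 to 59262985, inside the span of *Med12l*, a subunit gene of the Mediator kinase module. The strand setting of the counting is not given in the sources used here, so reads of the overlapping genes may not be told apart. *Med12l*, looked up for this overlap after its values were known, averaged 1192 normalized counts in WT and 1071 in *Nipbl*+/- brains, where it was just past the threshold (-0.16, edgeR adjusted P = 0.0999). *Cx3cr1*, on chromosome 9 from 120048683 to 120068296, overlaps the predicted gene Gm33858, which was looked up in the same way and averaged 4.06 normalized counts in WT and 2.07 in *Nipbl*+/- brains. *C1qa*, *C1qc* and *C1qb*, which encode the A, C and B chains of C1q, lie side by side on chromosome 4 between 136880126 and 136898844.

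**Figure D1:**
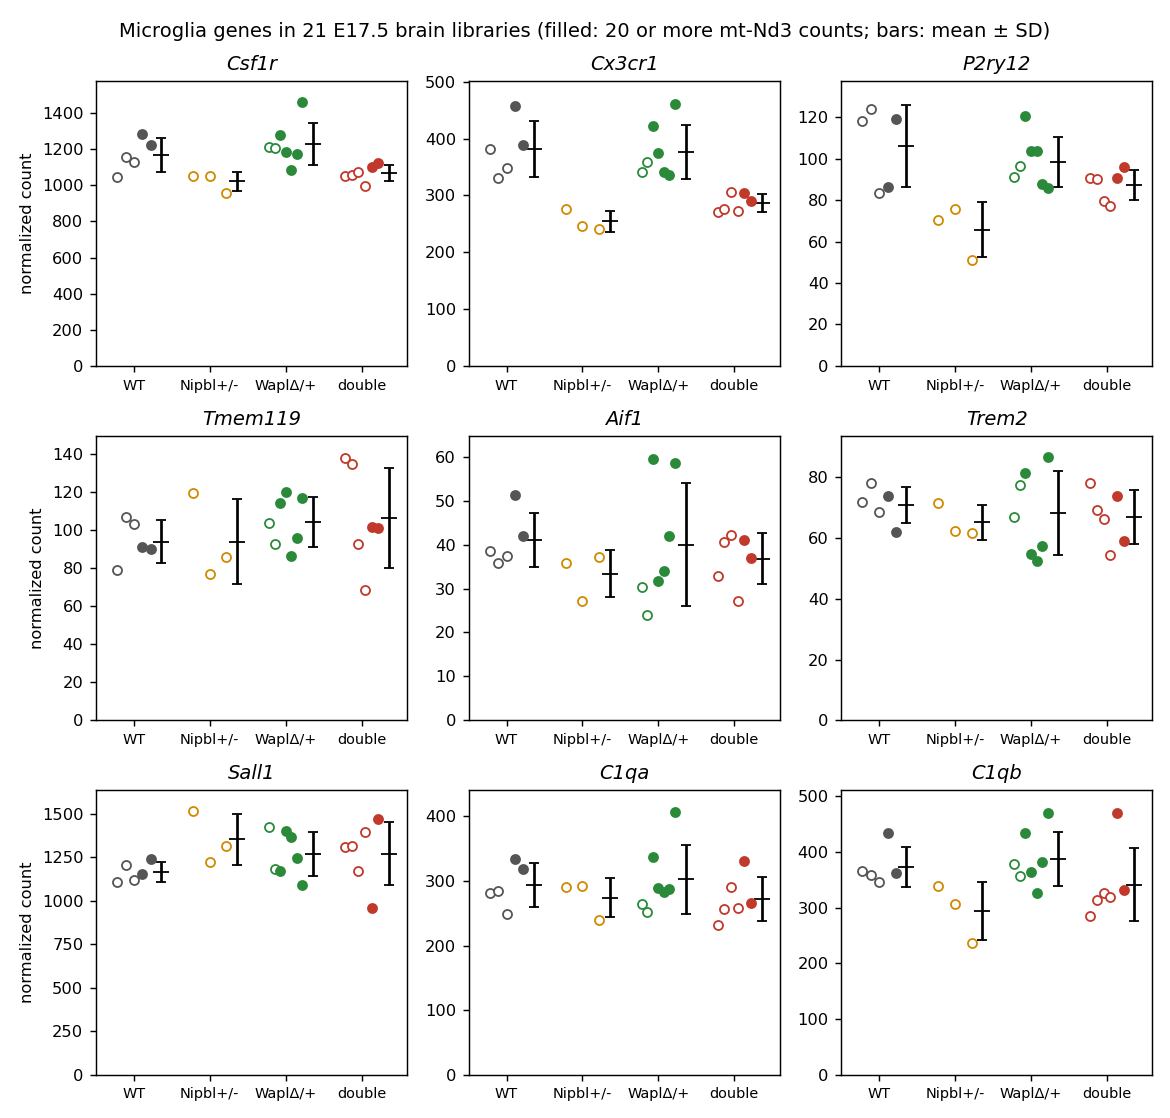
Normalized counts (y axis, from 0) of the 9 microglia genes in each library, by genotype group (x axis; double, double heterozygotes). Open circles are libraries with under 20 *mt-Nd3* counts, filled circles those with 20 or more, and the black bars give the mean and SD. For *Cx3cr1* all 9 libraries with a *Nipbl* deletion, at 306 or less, lay below the 12 without it, at 330.4 or more.

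*Cx3cr1*, the receptor for the neuronal chemokine CX3CL1, had normalized counts of 382, 330.4, 349, 458 and 388 in WT replicates 1 to 5. It had 275, 247 and 241 in *Nipbl*+/- replicates 1 to 3. The *Nipbl*+/- libraries were all below the lowest WT library. The log2 fold change was -0.59, with a standard error (SE) of 0.0957 and, in the quasi-likelihood test of edgeR, an adjusted P of 0.000939. For the same gene, *Wapl*Δ/+ libraries ranged from 336 to 462 with a median of 359, and double heterozygotes from 271 to 306 with a median of 283. *Wapl*Δ/+ libraries thus overlapped WT, and every double heterozygote lay below every WT and *Wapl*Δ/+ library. In whole brain RNA, the number of microglia, the RNA in each of them and the RNA of other cells that express a gene cannot be told apart. This holds for each result given here.

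*P2ry12*, a nucleotide receptor on the processes of resting microglia, had 118, 124, 83.4, 86.3 and 119 normalized counts in the WT replicates. In *Nipbl*+/- replicates it had 70.6, 75.8 and 50.9. The groups did not overlap, although WT replicates 3 and 4 lay well under the other WT libraries. The log2 fold change was -0.69 (SE 0.167, edgeR adjusted P = 0.0150). In *Wapl*Δ/+ brains *P2ry12* ran from 85.6 over a median of 96.5 to 121, and in double heterozygotes from 77.3 over 90.3 to 95.9. Both of these groups overlapped WT, and every double heterozygote was above every *Nipbl*+/- library.

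*Csf1r*, the receptor tyrosine kinase that microglia need to survive, had 1044, 1155, 1129, 1286 and 1223 normalized counts in WT replicates, and 1054, 1053 and 960.0 in *Nipbl*+/- replicates. WT replicate 1 was below the 2 highest *Nipbl*+/- libraries, so the groups overlapped. The log2 fold change was -0.20 (SE 0.0610, edgeR adjusted P = 0.0565). In *Wapl*Δ/+ brains *Csf1r* ranged from 1085 to 1463 (median 1209), and in double heterozygotes from 998 to 1124 (median 1065). The call in *Nipbl*+/- brains was lost when WT replicate 2, 4 or 5 or *Nipbl*+/- replicate 1 or 3 was left out, with adjusted P of up to 0.275 in those edgeR fits. Among low *mt-Nd3* libraries the log2 fold change of *Csf1r* was -0.12 (edgeR adjusted P = 0.345).

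*C1qb*, which encodes the B chain of C1q, had 366, 358, 346, 435 and 362 normalized counts in WT replicates and 339, 306 and 236 in *Nipbl*+/- replicates. The highest *Nipbl*+/- library lay just below the lowest WT library. The log2 fold change was -0.35 (SE 0.101, edgeR adjusted P = 0.0404), and it was -0.20 with no call (edgeR adjusted P = 0.257) when *Nipbl*+/- replicate 3, the lowest, was left out. Among low *mt-Nd3* libraries it was -0.28 (edgeR adjusted P = 0.201). *C1qb* in *Wapl*Δ/+ brains ran from 327 over a median of 379 to 471, and in double heterozygotes from 285 over 323 to 471, where 5 of the 6 double heterozygotes lay at 332 or less.

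*Sall1*, a zinc finger transcription factor of microglia, was the only member that rose. It had 1106, 1205, 1118, 1153 and 1243 normalized counts in WT replicates, and 1516, 1225 and 1315 in *Nipbl*+/- replicates. *Nipbl*+/- replicate 2 lay between WT replicates 2 and 5, and the other 2 lay above every WT library. The log2 fold change was 0.21 (SE 0.0595, edgeR adjusted P = 0.0372). It was 0.12 with no call (edgeR adjusted P = 0.295) without *Nipbl*+/- replicate 1, the highest library of the group. Among low *mt-Nd3* libraries it was 0.24 (edgeR adjusted P = 0.0864). *Sall1* in *Wapl*Δ/+ brains ran from 1089 over a median of 1248 to 1422, and in double heterozygotes from 959 over 1311 to 1472, so both groups reached below and above the WT range.

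For the other 4 genes the *Nipbl*+/- libraries overlapped WT and no difference was called. *Aif1*, a calcium-binding protein of the macrophage cytoskeleton, ranged from 35.9 to 51.4 normalized counts in WT and from 27.2 to 37.1 in *Nipbl*+/- brains, a log2 fold change of -0.31 (95% interval -0.67 to 0.05, edgeR adjusted P = 0.391). *Trem2*, a lipid receptor that signals through TYROBP, ranged from 62.0 to 78.0 in WT and from 61.5 to 71.6 in *Nipbl*+/- brains (-0.13 on the log2 scale, interval -0.39 to 0.13, edgeR adjusted P = 0.679). *C1qa*, the A chain of C1q, ranged from 249 to 335 in WT and from 239 to 292 in *Nipbl*+/- brains (-0.10, interval -0.29 to 0.09, edgeR adjusted P = 0.636). *Tmem119*, a membrane protein of microglia with little presence in other brain macrophages, ranged from 78.9 to 107 in WT and from 76.8 to 119 in *Nipbl*+/- brains, and its log2 fold change was -0.0035 (interval -0.30 to 0.29, edgeR adjusted P = 0.993). The intervals of all 4 genes include the change seen for *Csf1r*, so a difference of that size is not excluded for any of them. Those of *Aif1* and *Trem2* also include the larger change seen for *C1qb*. All intervals given here are normal 95% intervals from the SE and make no allowance for the small number of libraries. The SE is the absolute log2 fold change divided by the square root of the F statistic of the edgeR test.

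In all, 5 of 9 members (4 lower, 1 higher) were called between *Nipbl*+/- and WT brains, where 11.2% of all genes tested were called, 6.96% lower and 4.25% higher. The median log2 fold change was -0.20 over the 9 members and -0.0086 over all genes tested. For 3 members, *Cx3cr1*, *P2ry12* and *C1qb*, every *Nipbl*+/- library lay below every WT library, which held for 6.90% of all genes. Within the low *mt-Nd3* libraries, 3 *Nipbl*+/- against 3 WT, *Cx3cr1* (-0.48, edgeR adjusted P = 0.0106), *P2ry12* (-0.72, edgeR adjusted P = 0.0449) and *Sall1* were called. *Cx3cr1* and *P2ry12* were called in each fit that left out 1 library, and the number of members called in those fits was between 3 and 5. It was 3 without *Nipbl*+/- replicate 1 (*Cx3cr1*, *P2ry12*, *C1qb*) and 3 without *Nipbl*+/- replicate 3 (*Cx3cr1*, *P2ry12*, *Sall1*). In one fit of all 4 groups, *Cx3cr1* and *P2ry12* were called.

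**Figure D2:**
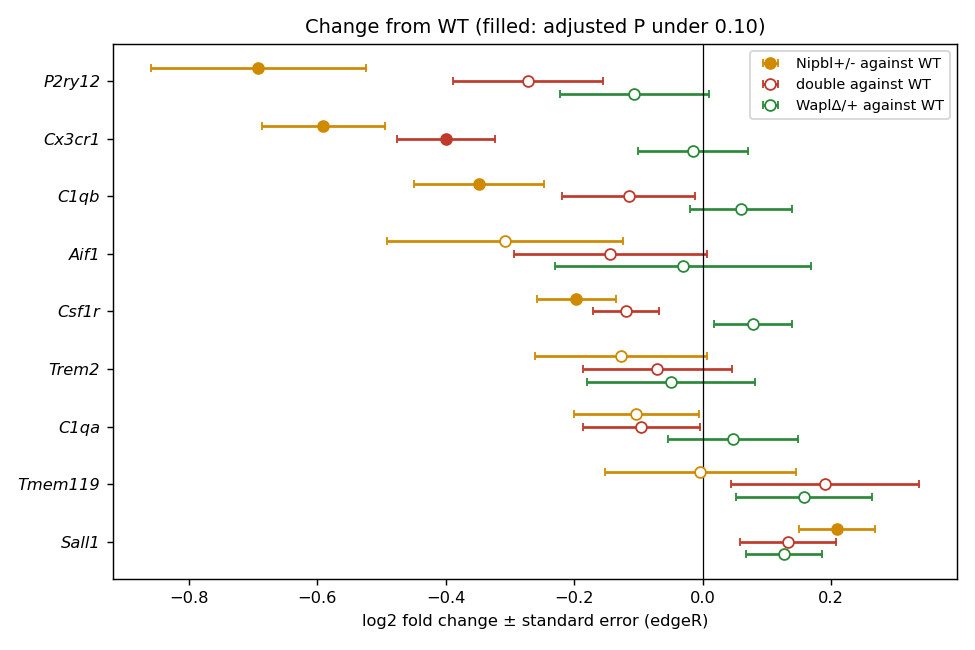
Log2 fold change from WT (x axis) of each microglia gene (y axis) in *Nipbl*+/-, double-heterozygote (double) and *Wapl*Δ/+ brains. Bars are the standard error derived from the F statistic of the edgeR test. Filled points have an adjusted P under 0.10: 5 genes in *Nipbl*+/- brains, *Cx3cr1* in double heterozygotes and none in *Wapl*Δ/+ brains.

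In *Wapl*Δ/+ brains the 9 log2 fold changes against WT lay between -0.11 for *P2ry12* and 0.16 for *Tmem119*, with a median of 0.05 against -0.0034 over all genes. None was called with edgeR or with DESeq2, whereas 2.22% of all genes tested were called with edgeR. Of the 9, 1 member, *Sall1*, had an unadjusted P below 0.05 (log2 fold change 0.13, edgeR adjusted P = 0.311). Over all genes, 4780 of the 30552 tested had an unadjusted P below 0.05 in this comparison. No member's range in *Wapl*Δ/+ brains was clear of the WT range, which was so for 1.20% of all genes. The 95% interval of the difference was -0.18 to 0.15 for *Cx3cr1* and -0.33 to 0.12 for *P2ry12*, so changes of the size seen in *Nipbl*+/- brains lie outside both. In these data the libraries of *Wapl*Δ/+ replicates 3 and 7 were high for several members, and replicate 7 was the highest of its group for 5 of 9, *Csf1r*, *Cx3cr1*, *Trem2*, *C1qa* and *C1qb*.

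In double heterozygotes *Cx3cr1* was the only member called against WT, with a log2 fold change of -0.40 (SE 0.0763, edgeR adjusted P = 0.00910), where 3.28% of all genes were called, 2.46% lower. *P2ry12* (-0.27, edgeR adjusted P = 0.301) and *Csf1r* (-0.12, edgeR adjusted P = 0.306) had unadjusted P values below 0.05 and missed the threshold. Unadjusted P values below 0.05 were held by 4123 of the 30552 genes tested there. The median over the 9 members was -0.12 and over all genes 0.00070. *Cx3cr1* was also the only member whose double-heterozygote libraries were clear of the WT range, which 2.29% of all genes showed in the same direction. Its log2 fold change was -0.32 (edgeR adjusted P = 0.0618) in the low *mt-Nd3* libraries and -0.49 with no call (edgeR adjusted P = 0.814) in the high ones, which held 2 libraries a group. Leaving out double-heterozygote replicate 5, which was high for *C1qb* and low for *Sall1*, raised the number of members called to 3, with *Sall1* at 0.20 (edgeR adjusted P = 0.0265) and *C1qb* at -0.24 (edgeR adjusted P = 0.0486). The comparisons of *Nipbl*+/-, *Wapl*Δ/+ and double-heterozygote brains with WT share the same 5 WT libraries.

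Double heterozygotes were compared directly with each single heterozygote. Against *Nipbl*+/- brains no member was called with edgeR or DESeq2, and 0.00655% of all genes were called with edgeR, so this contrast gave very few calls anywhere. At an unadjusted P below 0.05 there were 2 members, where 1259 of the 30552 genes tested reached that level. *P2ry12* differed by 0.41 on the log2 scale (95% interval 0.12 to 0.69, edgeR adjusted P = 0.971), with no overlap between the 6 double heterozygotes and the 3 *Nipbl*+/- libraries, as for 0.897% of all genes in that direction. *Cx3cr1* differed by 0.18 (interval 0.02 to 0.34, edgeR adjusted P = 0.971), and its ranges overlapped. Against *Wapl*Δ/+ brains, *Cx3cr1* was lower by the test, with a log2 fold change of -0.39 (SE 0.0743, edgeR adjusted P = 0.0157), where 1.02% of all genes were called (0.812% lower), and no library of one group reached the other, as for 0.717% of genes in this direction. *Csf1r* differed by -0.20 in that comparison (edgeR adjusted P = 0.123), and it was called at -0.22 when *Wapl*Δ/+ replicate 5 was left out (edgeR adjusted P = 0.0515), while *C1qb* was called at -0.29 when double-heterozygote replicate 5 was left out (edgeR adjusted P = 0.0952).

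Between *Nipbl*+/- and *Wapl*Δ/+ brains, *Cx3cr1* (log2 fold change -0.57, SE 0.102, edgeR adjusted P = 0.0138) and *P2ry12* (-0.58, SE 0.147, edgeR adjusted P = 0.0994) were called, against 1.16% of all genes (0.887% lower). *Csf1r* (-0.27, edgeR adjusted P = 0.128) and *C1qb* (-0.40, edgeR adjusted P = 0.160) were not called by edgeR and were called by DESeq2. *Cx3cr1*, *P2ry12* and *Csf1r* were lower in all 3 *Nipbl*+/- libraries than in all 7 *Wapl*Δ/+ libraries, which held for 1.94% of genes. Without *Nipbl*+/- replicate 3 no member was called in this comparison. Without *Nipbl*+/- replicate 1 or *Wapl*Δ/+ replicate 2, 3, 4 or 6, only *Cx3cr1* was called, and without *Wapl*Δ/+ replicate 5 *Csf1r* (-0.29, edgeR adjusted P = 0.0605), *Cx3cr1* and *C1qb* were.

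The interaction of the genotypes, which asks whether the double heterozygote departs from the sum of both single changes on the log2 scale, was fitted on all 21 libraries. No member was called with edgeR, nor with DESeq2, and edgeR called 0% of all genes. At an unadjusted P below 0.05 there was 1 member, *P2ry12*, with an interaction of 0.49 (95% interval 0.12 to 0.86, edgeR adjusted P = 0.248). That level was reached by 4221 of the 30552 genes tested. The interaction was 0.17 for *Cx3cr1* (interval -0.09 to 0.42, edgeR adjusted P = 0.627) and -0.24 for *Sall1* (interval -0.48 to 0.01, edgeR adjusted P = 0.402).

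Ordered by group means, *Cx3cr1* was lowest in *Nipbl*+/- brains at 254 ± 18.6 (mean ± SD of 3 libraries), followed by double heterozygotes at 287 ± 15.6 (6 libraries), *Wapl*Δ/+ brains at 376 ± 48.0 (7) and WT at 381 ± 48.9 (5). The step between double heterozygotes and *Wapl*Δ/+ was called by the test, and the steps on either side of it were not called. *P2ry12* took the same order, with means of 65.8 ± 13.2, 87.3 ± 7.25, 98.4 ± 12.2 and 106 ± 19.7, and none of its neighbouring steps passed the test. *Nipbl*+/- brains also had the lowest mean for *Csf1r*, *Aif1*, *Trem2*, *C1qb* and, by a margin far under the spread, *Tmem119*, whereas *C1qa* was lowest in double heterozygotes and *Sall1* lowest in WT. Over the whole series, *Cx3cr1* was 1 of 93 genes (0.304% of those tested) that were lower in all 9 libraries with a *Nipbl* deletion than in all 12 others, and it was the only one of the 9 members.

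**Figure D3:**
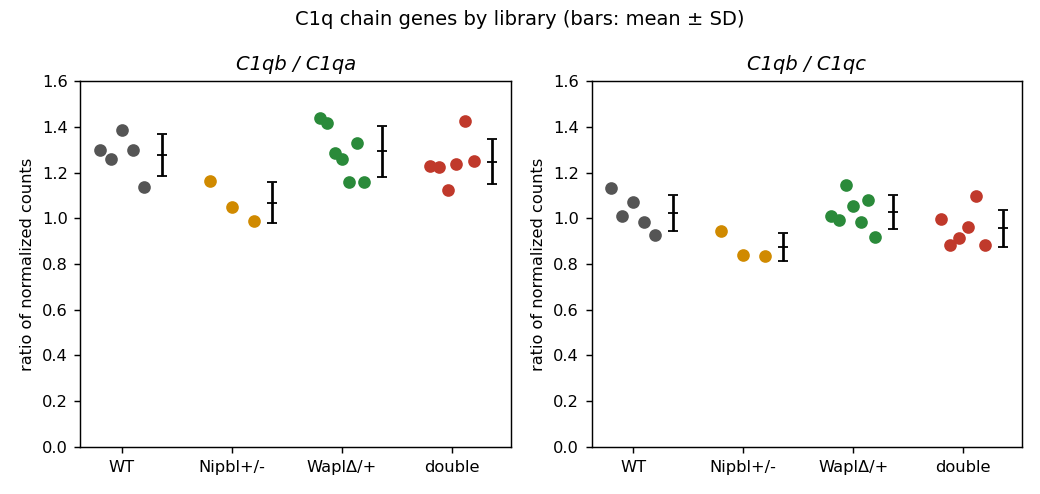
Ratio of *C1qb* to *C1qa* (left) and of *C1qb* to *C1qc* (right) normalized counts (y axes, from 0) in each library by group (x axes; double, double heterozygotes), with mean and SD as bars. The *Nipbl*+/- means, 1.07 and 0.87, are the lowest of the 4 groups, and the ranges overlap those of WT.

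The 3 chains of C1q are assembled in equal numbers, and their genes neighbour each other, so they were set side by side. *C1qc*, outside the 9 genes, ranged from 323 to 441 normalized counts in WT and from 283 to 364 in *Nipbl*+/- brains, with a change of -0.13 on the log2 scale and an edgeR adjusted P of 0.554, closer to *C1qa* than to *C1qb*. The ratio of *C1qb* to *C1qa* within a library averaged 1.28 ± 0.0913 in WT and 1.07 ± 0.0897 in *Nipbl*+/- brains (mean ± SD). *Wapl*Δ/+ brains stood at 1.29 ± 0.112 and double heterozygotes at 1.25 ± 0.0980. *Nipbl*+/- replicate 1, at 1.16, reached the WT range, which began at 1.13. The ratio of *C1qb* to *C1qc* gave 1.02, 0.87, 1.03 and 0.96 in the same order of groups. The differences in these ratios were not tested.

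Other genes of microglia were taken from lists drawn up for this cell type. Of 22 further microglia genes, 9 fell and 1 rose in *Nipbl*+/- brains, where 6.96% of all genes tested were called lower and 4.25% higher. Their median log2 fold change was -0.19, against -0.0086 over all genes. *Fcrls*, an Fc receptor-like gene of microglia, fell from a range of 274 to 378 normalized counts in WT to one of 153 to 217 (-0.87, edgeR adjusted P = 0.000330). *Siglech*, a sialic acid-binding lectin, fell from a range of 33.0 to 47.2 to one of 13.8 to 24.9 (-0.90, edgeR adjusted P = 0.0135). *Gpr34*, *Itgam*, *Cd33*, *Ctss*, *Lgmn* and *Mertk* were also among the genes that fell. *Adgrg1*, an adhesion receptor that neural progenitors also express, rose by 0.20 (edgeR adjusted P = 0.00346). Of the 22, 5 were called lower without *Nipbl*+/- replicate 3, 5 within the low *mt-Nd3* libraries and 3 in one fit of all 4 groups. In double heterozygotes and in *Wapl*Δ/+ brains none of the 22 was called by edgeR, with medians of -0.11 and -0.04. At an unadjusted P below 0.05 there were 6 and 2 of them, DESeq2 called 1 and 0, and *Fcrls* stood at -0.41 in double heterozygotes (edgeR adjusted P = 0.101). Over the 30552 genes tested, 4123 and 4780 had an unadjusted P below 0.05 in the same 2 groups against WT.

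Genes shared by macrophages and other myeloid cells gave 5 lower and none higher of 18 in *Nipbl*+/- brains, against 6.96% of all genes called lower, with a median of -0.26. *Cybb*, the catalytic subunit of the phagocyte NADPH oxidase, fell by 0.74 (edgeR adjusted P = 0.0471). *Laptm5*, a lysosomal membrane protein (-0.27, edgeR adjusted P = 0.0660), and *Ly86*, a partner of a Toll-like receptor relative (-0.49, edgeR adjusted P = 0.0725), were called as well, with *Tyrobp*. The summed level of the 18 genes was 2586 to 2891 normalized counts in WT, 2055 to 2535 in *Nipbl*+/-, 2601 to 3097 in *Wapl*Δ/+ and 2199 to 2579 in double-heterozygote libraries. The count depended on single libraries, with none called lower without *Nipbl*+/- replicate 3, 2 without WT replicate 4 or *Nipbl*+/- replicate 1, 3 without WT replicate 3 or 5, 1 within the low *mt-Nd3* libraries and none in one fit of all 4 groups. In double heterozygotes 1 of the 18 was called lower.

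Ligands and signalling partners of the members were examined from a list of 12. *Tgfb2*, a TGF-β ligand, fell from a range of 868 to 920 normalized counts in WT to one of 640.0 to 736 in *Nipbl*+/- brains (-0.39, edgeR adjusted P = 0.000206), and it was also lower in double heterozygotes (-0.29, edgeR adjusted P = 0.00159). *Apoe*, a lipid carrier that binds TREM2 and is made by radial glia and astrocytes as well, fell by 0.49 (edgeR adjusted P = 0.0161). *Cx3cl1*, the ligand of CX3CR1 (-0.19, edgeR adjusted P = 0.0903), and *Tyrobp*, the adaptor of TREM2 (-0.33, edgeR adjusted P = 0.0984), were just past the threshold. The CSF1R ligands *Csf1* (-0.17, edgeR adjusted P = 0.133) and *Il34* (-0.10, edgeR adjusted P = 0.741) and the ligand *Tgfb1* (0.17, edgeR adjusted P = 0.345) were not called in *Nipbl*+/- brains. *Csf1* was called higher in *Wapl*Δ/+ brains, at 485 to 609 against 430 to 498 normalized counts in WT (0.22, edgeR adjusted P = 0.0907). Of the 4 genes called lower in *Nipbl*+/- brains, 2 were called in each fit that left out WT replicate 1, 2, 3, 4 or 5, or *Nipbl*+/- replicate 1 or 3, and 1 in one fit of all 4 groups. *Tyrobp* also belongs to the 18 shared myeloid genes, and 6.96% of all genes were called lower in this comparison.

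Of 15 further complement genes, 3 fell and 1 rose in *Nipbl*+/- brains, against 6.96% of all genes called lower and 4.25% higher, and in one fit of all 4 groups 1 was called lower and 1 higher. *C1s1*, a serine protease of the C1 complex, fell from a mean of 32.6 to 16.5 normalized counts (-0.98, edgeR adjusted P = 0.0135). *Itgam*, the α chain of complement receptor CR3 and also 1 of the 22 microglia genes above, fell by 0.59 (edgeR adjusted P = 0.0159). *C2*, a protease of the classical pathway, rose by 0.20 (edgeR adjusted P = 0.0330) and was not called without *Nipbl*+/- replicate 1. Of 14 genes listed for microglia in the first days after birth, 4 fell and 1 rose. In one fit of all 4 groups, 2 of the 14 were called lower and 1 higher. *Igf1* (-0.53, edgeR adjusted P = 0.00112), *Lpl*, a lipase (-0.50, edgeR adjusted P = 0.00203), and *Cd9*, a tetraspanin (-0.22, edgeR adjusted P = 0.0138), fell together with *Ctsl*, and *Clec7a*, a receptor for fungal glucans, rose from at most 12.6 normalized counts in WT to a range of 14.9 to 19.1 (1.37, edgeR adjusted P = 0.0358). Without *Nipbl*+/- replicate 3, 2 of these genes were called lower and *Clec7a* was not called. Whole brain RNA does not show which cells the RNA of *Igf1*, *Lpl*, *Cd9* and *Ctsl* came from.

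**Figure D4:**
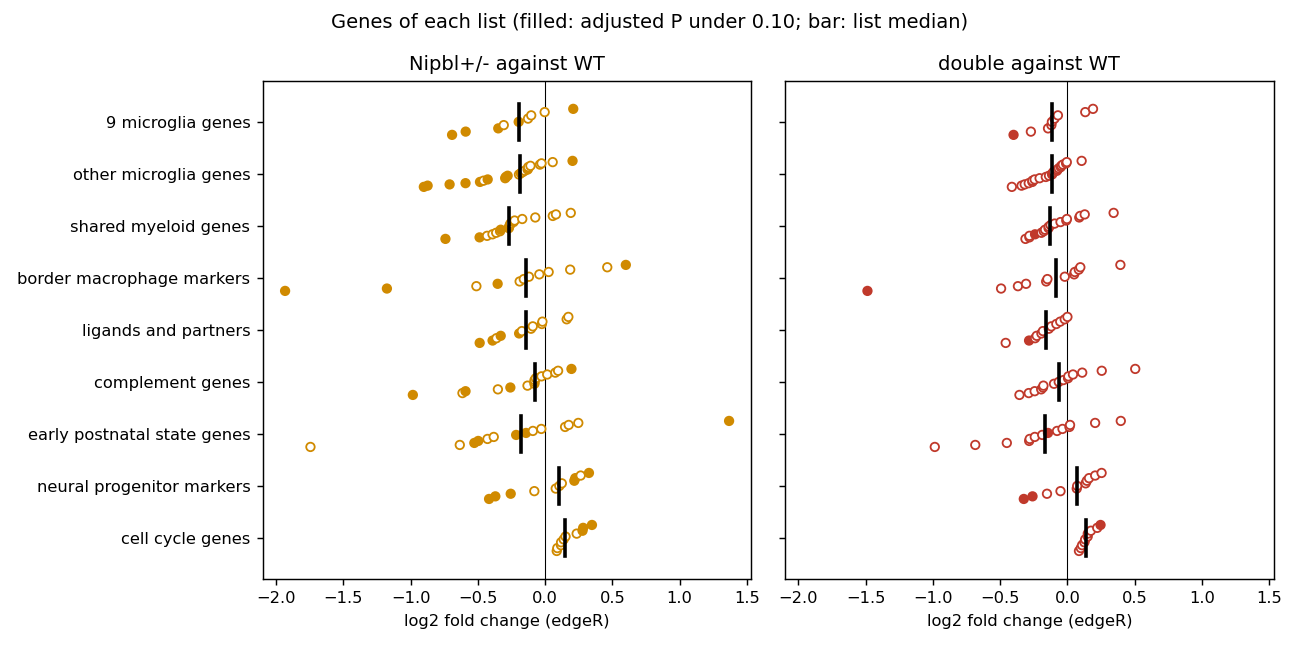
Log2 fold change (x axis) of every tested gene of 9 lists (y axis) in *Nipbl*+/- (left) and double-heterozygote (double, right) brains against WT. Filled points have an adjusted P under 0.10 in edgeR, and the black bars are list medians, which for the microglia genes were -0.20 and -0.12.

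Markers of other cells that whole brain can hold were read in the same way. Among 12 markers of macrophages at the brain's borders, 3 fell and 1 rose in *Nipbl*+/- brains. Of all genes tested, 6.96% were called lower and 4.25% higher in this comparison. The median of the 12 was -0.14, against -0.0086 over all genes. With 1 library left out, 2 to 4 of the 12 were called lower. *Cd163*, a haemoglobin scavenger receptor, fell from 110.0 ± 10.5 normalized counts in WT to 28.7 ± 5.56 (-1.93, edgeR adjusted P = 2.49e-06), *Ms4a7* changed by -1.18 (edgeR adjusted P = 0.0213) and *Mrc1*, the mannose receptor, by -0.35 (edgeR adjusted P = 0.0133). *Siglec1*, a sialic acid-binding receptor, rose by 0.60 (edgeR adjusted P = 0.0604), a call that was lost without WT replicate 1, 2 or 5 or *Nipbl*+/- replicate 1. The summed level of the 12 markers was 3461 to 3867 normalized counts in WT, 2937 to 3807 in *Nipbl*+/-, 3425 to 4242 in *Wapl*Δ/+ and 3004 to 3617 in double-heterozygote libraries. None of the 12 was at 0 in all libraries, and their part in the changes of the members was not tested.

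The calls among markers of cells outside the macrophage family are set against the 11.2% of all genes called in *Nipbl*+/- brains. None of 12 monocyte and neutrophil markers was called in edgeR or in DESeq2 or had an unadjusted P below 0.05, at a summed level of 34.9 to 173 normalized counts in WT and 81.6 to 138 in *Nipbl*+/- brains. An unadjusted P below 0.05 was found for 6117 of the 30552 genes tested. Of 9 erythroid markers tested, 1 was called higher, and its call was lost without WT replicate 1, 2, 3 or 4 or *Nipbl*+/- replicate 1 or 3, while 6 of them were called lower without *Nipbl*+/- replicate 3. Of 12 endothelial and mural markers 1 was higher and 1 lower, and without *Nipbl*+/- replicate 2 these counts were 3 and 3. Of 10 meningeal fibroblast markers 1 was lower, and none was without *Nipbl*+/- replicate 3 or WT replicate 2, while 2 were without *Nipbl*+/- replicate 1 or WT replicate 1. Of 14 neuronal markers 3 were lower, and 6 were without *Nipbl*+/- replicate 2. The share of all genes called in the fits with a library left out is not given here. The part of these cell types in the members' changes was not tested.

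Against WT, 2.22% of all genes were called in *Wapl*Δ/+ brains and 3.28% in double heterozygotes. In *Wapl*Δ/+ brains no gene was called by edgeR in the lists of shared myeloid, complement, postnatal microglia, border macrophage, monocyte and neutrophil, erythroid, progenitor and neuronal genes, and 2 were called higher among the endothelial and mural, 2 among the meningeal and 2 among the cell cycle genes. The lists with no call held 0 to 7 genes each at an unadjusted P below 0.05, and DESeq2 called 0 to 2 in each. *Wapl*Δ/+ against WT gave 4780 genes at an unadjusted P below 0.05 among the 30552 tested. In double heterozygotes 1 gene of the postnatal microglia list (*Cd9*) and 1 border macrophage marker (*Cd163*, -1.49, edgeR adjusted P = 8.83e-05) were lower. There, 2 progenitor and 2 neuronal markers were lower, and 1 neutrophil, 1 meningeal and 1 cell cycle gene were higher. Among complement, erythroid, and endothelial and mural genes none was called there by edgeR, with 3 at an unadjusted P below 0.05 in each list and 1, 1 and 0 called by DESeq2. Double heterozygotes against WT gave 4123 genes at an unadjusted P below 0.05 among the 30552 tested. No gene of any list was called between double heterozygotes and *Nipbl*+/- brains by edgeR or DESeq2, and 0 to 4 in each list had an unadjusted P below 0.05. So did 1259 of the 30552 genes tested in that comparison.

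*Sall1* did not follow the other 8 genes across the libraries. Its Pearson's r with the mean of the standardized levels of all 9 members, itself included, was -0.34 over the 21 libraries. Its r with the summed level of 10 cell cycle genes was 0.70, and 0.67 after the group means were taken out. Those correlations describe 21 libraries that share tissue, preparation and normalization. Of the 10 cell cycle genes, *Birc5* (0.35, edgeR adjusted P = 0.0268), *Cdk1* (0.28, edgeR adjusted P = 0.0371) and *Plk1* (0.28, edgeR adjusted P = 0.0151) were called higher in *Nipbl*+/- brains, none without *Nipbl*+/- replicate 1 and all 10 without *Nipbl*+/- replicate 2. Of 11 markers of neural progenitors, which also express *Sall1*, *Sox2* (0.22, edgeR adjusted P = 0.0223), *Nes* and *Eomes* were called higher and the radial glia genes *Ednrb* (-0.42, edgeR adjusted P = 7.6e-05), *Slc1a3* (-0.37, edgeR adjusted P = 0.000205) and *Fabp7* (-0.26, edgeR adjusted P = 0.00348) lower. Without *Nipbl*+/- replicate 1 or 3, 1 progenitor marker was called higher, and without *Nipbl*+/- replicate 2, 6 were. With all libraries kept, 4.25% of all genes tested were called higher and 6.96% lower. The share of all genes called in the fits with a library left out is not given here. The summed progenitor level had an r of 0.07 with *Sall1* (0.46 within groups) and of 0.71 with *Cx3cr1* (0.08 within groups). That sum, which abundant genes dominate, averaged 41928 normalized counts in WT and 39068 in *Nipbl*+/- brains. The median log2 fold change of the 11 progenitor markers was 0.11 there, so the sum and the typical marker went opposite ways. The part of dividing cells and of progenitors in the levels of the members was not tested.

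**Figure D5:**
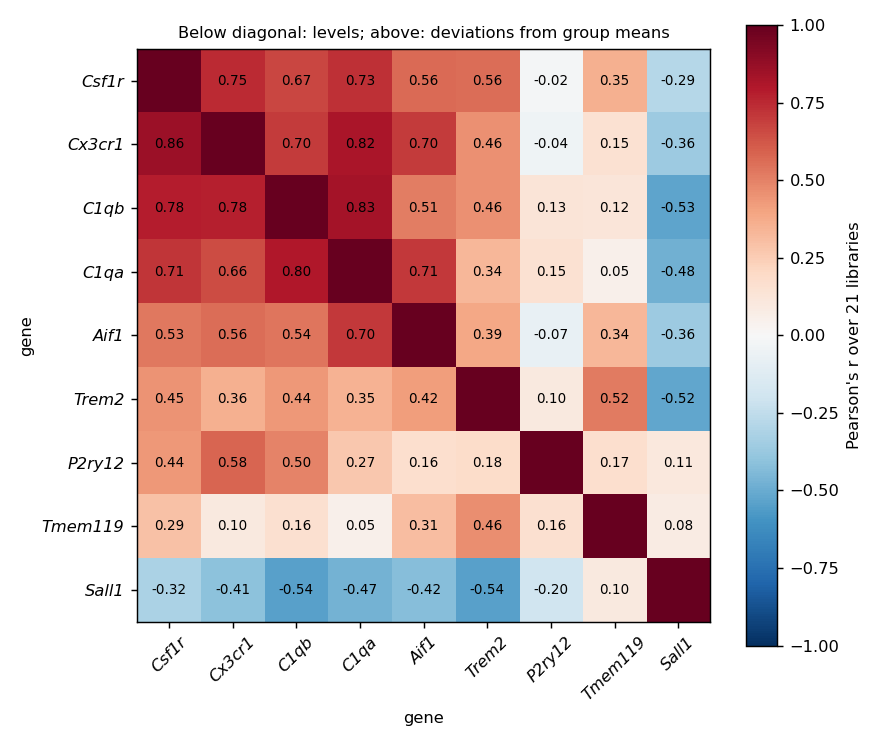
Pearson's r between the microglia genes (both axes) over 21 libraries, of log2 levels below the diagonal and of deviations from the group means above it. *Csf1r*, *Cx3cr1*, *C1qa* and *C1qb* hold values of 0.66 to 0.86 below the diagonal, and *Sall1* is negative with 7 of the other 8 genes there.

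Among the 9 genes, the closest pairs across the 21 libraries were *Csf1r* with *Cx3cr1* (Pearson's r of log2 levels 0.86) and *C1qa* with *C1qb* (0.80). Within groups, with the group means taken out, these pairs kept values of 0.75 and 0.83. *Cx3cr1* and *P2ry12* had an r of 0.58 that was -0.04 within groups. *Csf1r*, *Cx3cr1* and *C1qb* had an r of 0.88, 0.86 and 0.83 with the summed level of the 18 shared myeloid genes, *P2ry12* of 0.54 and *Tmem119* of 0.22. Within *Nipbl*+/- brains, replicate 3 was the lowest of the group for 6 of the 9 genes and replicate 1 the highest for 6. In WT, replicate 4, a high *mt-Nd3* library, was the highest for 5.

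The genes whose pattern was most like that of the members were sought among the 17294 genes that averaged 1 CPM or more (CPM, reads scaled to a common library total), by Pearson's r of the log2 level with the mean of the 8 members other than *Sall1*. The 10 most alike were *Gja1* (0.89), *Brinp3*, *Scg2*, *Serpine2*, *Nell1*, *Plpp4*, *Csrp1*, *Psmb10*, *Pcsk6* and *Calb2* (0.84). By Spearman's rho, 3 of these 10 remained among the 10 most alike, and 2 did within groups. For single members, the most alike gene was *C1qc* for *C1qa* (0.87), *Ctsb*, a lysosomal protease, for *C1qb* (0.92), *Ighm* for *Csf1r* (0.88), *Fut8* for *Cx3cr1* (0.92), *Lrrc58* for *P2ry12* (0.79) and *Gramd4* for *Sall1* (0.94). For *Tmem119*, *Aif1* and *Trem2* the closest genes, *Lmna*, *Asah2* and *Rbm34*, had an r of 0.76, 0.78 and 0.78. The points share their libraries, so no P value is attached.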

How the data were processed

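Per the labels and the study's methods, whole brains of E17.5 embryos gave poly(A) libraries sequenced as paired-end reads. The authors trimmed reads with cutadapt 2.4, aligned them to mm10 (GRCm38.p6) with STAR 2.5.3a, counted them with featureCounts of Subread 1.6.4 and deposited raw counts per gene for the libraries. The submitters' processing notes also name MultiQC 1.9. The annotation release and the strand setting are not given in the sources used here, and 1 further *Nipbl*+/- library that the authors set aside was not analysed here.

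The test was edgeR 4.0.16 (R 4.3.3, limma 3.58.1) with TMM scaling and quasi-likelihood fits. Of 55335 genes, 14366 had no counts, and the 30552 whose normalized counts over the 21 libraries came to 10 or more were kept. Each comparison was fitted on its own groups, with the interaction fitted on all. P values were adjusted over all genes tested (Benjamini-Hochberg), and a gene was called at an adjusted P below 0.10. With total counts of 25682566 to 35818767 per library, a gene's counting error falls with its count and is given for the extremes. Replicates are embryos numbered in the labels. No pair of replicates agreed within sampling noise. The chi-square of count differences per degree of freedom was 24.2 and 26.0 between *Nipbl*+/- replicate 3 and replicates 1 and 2. It was 7.95 between *Nipbl*+/- replicates 1 and 2, and it reached 23.8 between double-heterozygote replicates 2 and 5. In whole brain libraries without molecular identifiers, counting errors cover counting only.

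The 9 members and all gene lists were chosen with earlier results of these data known. Lists cover further microglia genes, shared myeloid genes, ligands and partners, complement, early postnatal microglia, and markers of border macrophages, monocytes and neutrophils, erythroid, endothelial and mural, meningeal, progenitor, neuronal and dividing cells. Named genes were the 9 members, the ligands *Csf1*, *Il34*, *Cx3cl1*, *Tgfb1* and *Tgfb2*, and the partners *Tyrobp*, *Apoe* and *C1qc*. Up to 4 genes a list with the smallest adjusted P among those called in *Nipbl*+/- brains were also named. So were the 10 genes most like the mean of the members (Pearson's r of log2 CPM with a prior count of 2) and 1 for each member. *Sall1* was left out of that mean because its r with the mean of all 9 was under 0.5. This rule was set for *Sall1* only. Gene names called in counts of a list were added after their values were seen, and some genes that the rule names are not reported here.

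Alternatives were DESeq2 1.42.0, its size factors in edgeR, other filters on low counts, an adjusted P below 0.05, all 4 groups in one fit, the replicate number as a block, libraries on either side of 20 *mt-Nd3* counts, libraries with either order of *Wapl* alleles and leaving out each library. Alternatives for the lists were added after seeing the data. For the alternatives, DESeq2 included, the share of all genes called is not given here. On simulated counts of 30552 genes shaped like *Nipbl*+/- against WT, edgeR recovered 78 of 100 genes changed by 0.5 and 97 of 100 changed by 1 on the log2 scale, with 36 unchanged genes called.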

Additional observations from a re-analysis of the deposited data

Results flagged for a closer look

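In 27 combinations of a member and a group of 4 to 10 libraries, the highest or the lowest library was compared with its neighbours by Dixon's criterion, and 2 stood apart. Chance gives about 1 in 20. Both were high values of *C1qb*. In WT, replicate 4 had 434.6 normalized counts, with the next library at 365.8 and the lowest at 345.6. In double heterozygotes, replicate 5 had 470.9, with the next at 331.9 and the lowest at 285.1. WT replicate 4 and double-heterozygote replicate 5 are both high *mt-Nd3* libraries. The difference of *C1qb* between *Nipbl*+/- and WT was still called without WT replicate 4, while without double-heterozygote replicate 5 *C1qb* was called lower in double heterozygotes than in WT (log2 fold change -0.24).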

How the results depend on the processing

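Between *Nipbl*+/- and WT, 5 members were called. This number was 2 in one fit of all 4 groups, 3 with the replicate number as a block, 3 in low *mt-Nd3* libraries and 3 to 5 when 1 library was left out. Against WT, *Wapl*Δ/+ brains gave 1 call under the block (*Sall1*, 0.17) and none otherwise. Double heterozygotes gave 0 in the high *mt-Nd3* libraries, 3 with the *Wapl* deletion written first, 0 with it written second and 1 to 3 with 1 library left out, against 1. Against *Wapl*Δ/+ brains they gave 2 with DESeq2, 2 in one fit of all 4 groups, 0 on either side of the *mt-Nd3* split and in either allele order, and 1 to 2 with 1 library left out, against 1. *Nipbl*+/- against *Wapl*Δ/+ gave 1 at an adjusted P below 0.05, 4 with DESeq2, 1 with DESeq2 size factors, 4 with no filter, 1 with the block, 0 in low *mt-Nd3* libraries, 0 with the deletion written first and 0 to 3 with 1 library left out, against 2. Double heterozygotes against *Nipbl*+/- and the interaction gave 0 throughout. The share of all genes called in each of these settings is not given here, so these numbers are not set against it. The smaller sets of libraries leave fewer samples, and for the other settings the cause was not tested.

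Signs turned only for values with no call. For *Tmem119* in *Nipbl*+/- brains the log2 fold change was 0.0051 with DESeq2, 0.0060 with its size factors or filterByExpr, 0.0069 with no filter, 0.027 in one fit of all 4 groups and -0.21 to 0.12 with 1 library left out. *C1qa* in *Nipbl*+/- brains had 0.0056 with the replicate block and 0.0088 in low *mt-Nd3* libraries, where *C1qc* had 0.0039, and *Il34* ran from -0.17 to 0.032 with 1 library left out. In *Wapl*Δ/+ brains, high *mt-Nd3* libraries gave -0.020 for *Csf1r*, -0.027 for *C1qa* and -0.0074 for *C1qb*. The deletion written first gave 0.030 for *Trem2*, -0.19 for *C1qa* and -0.021 for *C1qb* there, and written second 0.025 for *Cx3cr1* and 0.14 for *Aif1*. *C1qa* had -0.038 with the block and -0.073 in low *mt-Nd3* libraries. With 1 library left out, these ran from -0.071 to 0.060 for *Cx3cr1*, -0.16 to 0.065 for *Aif1* and -0.039 to 0.10 for *C1qa*. In double heterozygotes, *C1qb* had 0.032 in high *mt-Nd3* libraries, and with the deletion written second *C1qa* had 0.049 and *C1qb* 0.13.

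The labels number the replicates alike in each group, but the numbers did not pair the libraries. Over 25 pairs with a shared number and 17303 genes, deviations from the group means had r from -0.21 to 0.37 (median 0.02), with 7 above 0.1. Under the block, *Cx3cr1* (-0.48), *P2ry12* (-0.73) and *Sall1* (0.23) were called in *Nipbl*+/- brains. High *mt-Nd3* libraries could not be fitted for comparisons with *Nipbl*+/- brains, which hold none. Members with about 30 to 100 counts, *Aif1*, *Trem2*, *Tmem119* and *P2ry12*, are those whose changes depth limits most.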

Other observations

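Of the 10 genes most like the members across the libraries, *Gja1*, the main gap junction protein of radial glia and astrocytes, had the highest r, 0.89 over levels and 0.82 within groups. By Spearman's rho the most alike gene was *Ctsb*, a lysosomal protease, at 0.89, and *Fcrls*, a microglia gene, was among the 10 at 0.85. With the group means taken out it was *Cavin1*, a caveolae coat protein, at 0.88. These values describe 21 libraries.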
